A study of Rattus norvegicus with 78 samples.

Results

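Heat shock proteins and their DnaJ partners were represented by 84 probesets among the 31042 probesets of the array that are not controls. A probeset was taken when its gene symbol in the array annotation began with Hsp90, Hspa, Hspb, Hspd, Hspe, Hsph, Dnaja, Dnajb or Dnajc and when its mean intensity over the 78 arrays was above 30. The symbols alone gave 103 probesets, of which 19 had a mean of 30 or less. The 84 probesets stood for 60 genes or groups of symbols, and 21 of these had more than 1 probeset. A single symbol was given for 79 probesets. The other 5 carried several symbols, pseudogenes included, and are written here with all of them. The Dnajb3 probeset lay just inside the threshold, with a mean of 30.26, and a Dnajc7 probeset lay just outside it, with a mean of 29.79. By family there were 5 probesets for Hsp90, 14 for Hspa, 2 for Hsph1, 6 for Hspb, 2 for the chaperonins Hspd1 and Hspe1, 6 for Dnaja, 19 for Dnajb and 29 for Dnajc, with 1 for the Hsp70-binding protein Hspbp1.

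The arrays measured RNA from hippocampus (HIP) and from prefrontal/frontal cortex (P/FC) of the Flinders Sensitive Line (FSL), a rat line used as a model of depression, and of its control, the Flinders Resistant Line (FRL). In each region 12 FRL and 9 FSL arrays came from cohort 1 and 10 FRL and 8 FSL arrays from cohort 2, which makes 22 FRL and 17 FSL arrays a region. The titles and strain entries give these lines and were used here, although the source names of the FSL arrays of P/FC and the descriptions of those of HIP carry the abbreviation FRL. All rats were adult males that had been through the forced swim test before the tissue was taken. The lines differ throughout the genome by selective breeding, so a difference between them cannot be assigned to an allele. Array properties that also differed between the lines are given below, and their part was not separated from that of the line. The paper could not exclude sequence polymorphisms as the source of some probeset differences. P/FC was the whole frontal lobe, and both regions were taken from the right hemisphere of the same animals, although no label ties a HIP array to a P/FC array of 1 animal. In bulk tissue, fewer cells of a type and less RNA per cell cannot be told apart.

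Chaperones of the Hsp70 family bind exposed hydrophobic stretches of unfolded proteins in a cycle driven by ATP. DnaJ proteins, also called Hsp40, deliver clients to Hsp70 and speed up its ATP hydrolysis, while Hsp110 proteins such as Hsph1 act as nucleotide exchange factors that let the client go. Hsp90 completes the folding of kinases and steroid receptors, small heat shock proteins hold unfolded clients without ATP, and in neurons the DnaJ proteins auxilin and cysteine string protein serve the synaptic vesicle cycle. Many of the inducible genes are switched on by the heat shock factor Hsf1, which binds inverted repeats of the unit GAA in their promoters.

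The promoters of 5 member genes are shown because they hold such repeats and because the results below turn on these genes or on their partners. They are taken from RefSeq on the rat build GRCr8, 100 bases each, written 5′ to 3′ along the gene's strand: Hsph1 at chr12:10427268-10427367 on the plus strand, Dnaja1 at chr5:60638177-60638276 on the plus strand, Dnajb6 at chr4:6232113-6232212 on the minus strand, Hspb6 at chr1:94934177-94934276 on the plus strand and Hspe1 at chr9:64084223-64084322 on the plus strand. Capitals mark the letters of the motifs GAANNTTC and TTCNNGAA that are fixed.
Hsph1: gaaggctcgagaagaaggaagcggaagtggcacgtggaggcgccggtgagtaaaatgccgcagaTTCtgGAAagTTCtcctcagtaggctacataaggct
Dnaja1: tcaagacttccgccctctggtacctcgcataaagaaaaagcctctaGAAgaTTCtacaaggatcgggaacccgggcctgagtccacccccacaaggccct
Dnajb6: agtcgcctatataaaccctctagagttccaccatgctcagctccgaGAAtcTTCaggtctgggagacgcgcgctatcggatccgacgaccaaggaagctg
Hspb6: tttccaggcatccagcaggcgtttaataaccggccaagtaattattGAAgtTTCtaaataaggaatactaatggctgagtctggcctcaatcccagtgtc
Hspe1: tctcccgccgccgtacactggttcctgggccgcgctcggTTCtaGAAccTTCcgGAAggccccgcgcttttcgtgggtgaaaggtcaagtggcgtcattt

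Each of the motifs reads the same on both strands, and in a run of 3 or more units the motifs overlap. In the 250 bases before the start, 1 or the other motif was present in 13 of the 48 member genes that had a probeset of their own and a promoter in the table, which is 27.1%, against 13.5% of all 33469 promoters. A run of 3 units, GAANNTTCNNGAA or TTCNNGAANNTTC, was present in 3 of the 48, namely Hsph1, Hspd1 and Hspe1, against 0.663% of all promoters. Hspd1 and Hspe1 lie head to head and share the stretch shown. The promoters of Hspa4l, Hspa1a, Hsp90ab1, Dnajc5, Hspa5, Hsp90b1 and Hspa4 held neither motif in this window. A match of letters is a description of the sequence and not of binding.

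The levels of FSL and FRL were compared by region over both cohorts, with limma on log2 intensities, to ask which chaperones differ between the lines. In HIP 9 of the 81 member probesets tested passed an adjusted p of 0.05, 7 higher and 2 lower in FSL. That is 11.1% of them, where 7.33% of the 21630 probesets tested in HIP passed, 3.2% higher and 4.13% lower. In P/FC 23 of 83 passed, 19 higher and 4 lower in FSL. That is 27.7%, where 18.6% of the 22370 probesets tested in P/FC passed, 9.76% higher and 8.86% lower. The median change of the members was 0.03 in HIP and 0.06 in P/FC on the log2 scale, against -0.0016 and 0.0019 over all probesets tested. The changes were small: the called probesets had a median absolute change of 0.12 in HIP and 0.17 in P/FC, a 1.08-fold and a 1.13-fold difference. Changes were positive in 54 of 81 members in HIP and in 59 of 83 in P/FC, that is 66.7% and 71.1%, against 49.2% and 50.7% of all probesets.

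**Figure D1:**
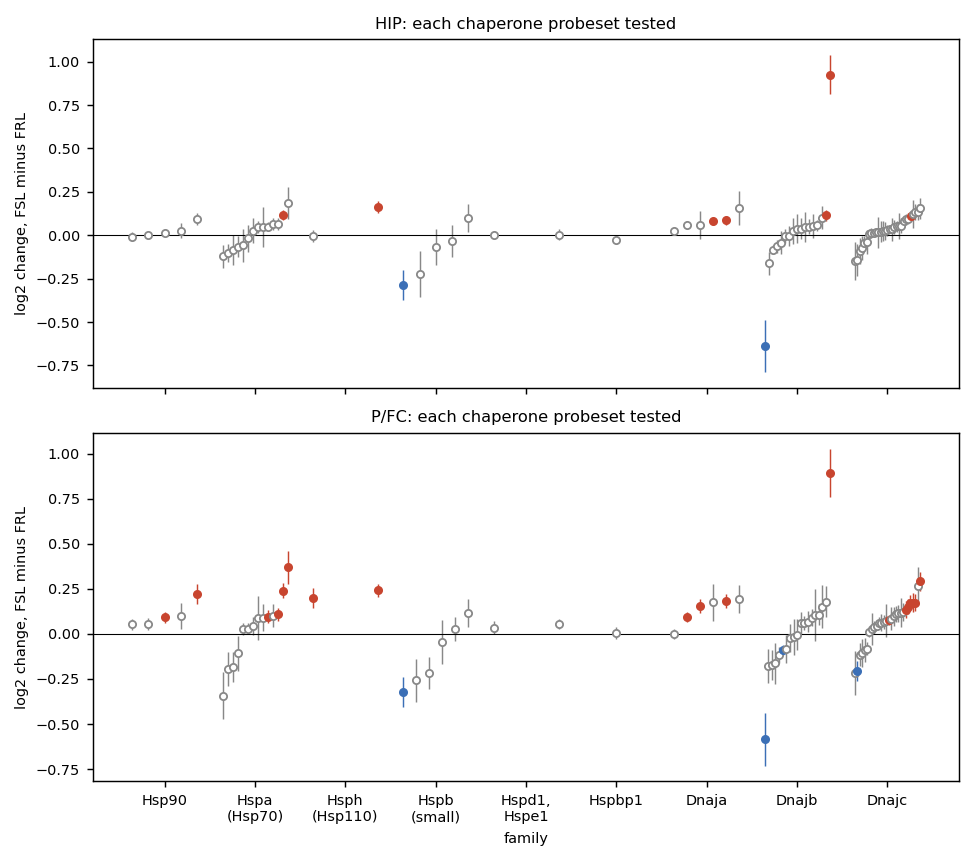
Log2 change from FRL to FSL (vertical axis, mean of both cohorts) of each chaperone probeset tested in HIP and in P/FC, arranged by family on the horizontal axis, with its SE as a bar, in red for probesets higher and in blue for those lower in FSL at an adjusted p of 0.05 in limma's test. Most called points lie between -0.32 and 0.37, and those farthest from 0 are Dnajb6 at 0.92 and 0.89 and the Dnajb6/Dnajb6-ps10/Dnajb6-ps4 probeset 1382024_at at -0.64 and -0.58.

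The lines also differed in array properties that bear on these counts. Array medians lay between 56.8 and 63.0 in HIP and between 60.8 and 66.0 in P/FC. For Gapdh, the 3′ control probeset exceeded the 5′ one by a log2 ratio, a sign of RNA or label integrity, of 0.83 ± 0.08 (SD) in the 22 FRL arrays of HIP and of 0.79 ± 0.07 in the 17 FSL arrays, and of 0.87 ± 0.11 against 0.78 ± 0.06 in P/FC. That of Actb was 0.76 ± 0.10 against 0.66 ± 0.08 in HIP and 0.79 ± 0.15 against 0.73 ± 0.13 in P/FC. With the Gapdh ratio as a covariate, 5 members passed in HIP and 5 in P/FC, or 6.17% and 6.02%, where 5.22% and 3.81% of all probesets passed. In HIP these 5 were the 3 Dnajb6 probesets, Hspa4l and the brighter Hsph1 probeset, and in P/FC the Dnajb6 probesets 1392598_at and 1382024_at, Hspa4l, Dnajc12 and the brighter Hsph1 probeset. All other calls of members over both cohorts missed the threshold in that fit. With the Actb ratio 1 member passed in HIP, the Dnajb6 probeset 1392598_at, and 15 in P/FC, or 1.23% and 18.1%, where 2.04% and 13.2% of all probesets passed. In each of these fits, all 9 and all 23 of the called probesets kept their sign. Of 9 astrocyte markers tested, 6 were lower in FSL in HIP and 8 in P/FC. In P/FC their summed level ran from 14080 to 21360 in FRL arrays and 14171 to 17277 in FSL arrays. Of 10 neuron markers, 4 were higher and 1 lower in HIP and 5 were higher and 1 lower in P/FC. Of 10 endothelial and mural markers, 1 was lower in HIP and 5 in P/FC. Of 10 striatum markers 2 were higher in FSL in P/FC, Drd1 by 0.76 ± 0.28 and Tac1 by 0.89 ± 0.30, and the median change of the 10 was 0.55. Their sum there was 1500, 2068 and 6437 (lowest, median, highest) in FRL and 1614, 3784 and 6534 in FSL. Of 9 microglia markers, Csf1r and Ctss were lower in P/FC, with changes of -0.29 ± 0.05 and -0.28 ± 0.06, and in HIP Ctss was lower and P2ry12 higher. Of 9 meninges markers tested in HIP, Dcn was higher by 0.62 ± 0.12 and the other 8 gave no call. The median change of the 9 was -0.08. Oligodendrocyte and choroid plexus markers gave no call. Of 4 markers of hippocampal granule and pyramidal neurons tested in P/FC, Nr3c2 was higher by 0.27 ± 0.06. Of 7 cortical neuron markers tested there, Cux2 was lower, with a change of -0.29 ± 0.09. Neither list gave a call in HIP. With the choroid plexus markers as a covariate 9 members passed in HIP, where 7.41% of all probesets did, and with the striatum and meninges markers 16 in P/FC, or 19.3%, where 12.3% of all probesets did. The part of the neuron, astrocyte, microglia and vessel markers in the chaperone changes was not tested.

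Among the Hsp90 chaperones, 0 of 5 probesets passed in HIP and 2 of 5 in P/FC, both higher in FSL. The called probeset of Hsp90aa1/Hsp90aa1-ps17, the stress-inducible cytosolic Hsp90, had intensities in P/FC of 2549, 3492 and 4491 (lowest, median, highest) in FRL and of 3395, 4090 and 4556 in FSL. The groups overlapped, with 16 of 17 FSL arrays above the FRL median. The change was 0.22 ± 0.06 (log2, SE), with an adjusted p of 0.00463 in limma's test. A second, brighter probeset of this pair of symbols changed by 0.05 ± 0.03, with an adjusted p of 0.21. For the constitutive cytosolic Hsp90ab1, the brighter probeset had 3125, 3391 and 3893 in FRL and 3395, 3608 and 3929 in FSL in P/FC, and all 17 FSL arrays were above the FRL median. Its change was 0.09 ± 0.03 in P/FC (adjusted p of 0.0208 by limma) and 0.0024 ± 0.02 in HIP. The dimmer Hsp90ab1 probeset passed in neither region, with medians in P/FC of 2076 in FRL and 2263 in FSL. The P/FC changes of the called probesets with the Gapdh ratio as a covariate were 0.09 for Hsp90aa1/Hsp90aa1-ps17 and 0.05 for Hsp90ab1, with adjusted p-values of 0.395 and 0.433. The Hsp90ab1 call was also lost with the Actb ratio (adjusted p of 0.0677) and with the striatum and meninges markers (0.111). Hsp90b1, the Hsp90 of the endoplasmic reticulum, changed by 0.05 ± 0.03 in P/FC, with an adjusted p of 0.253.

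In the Hspa family, which holds the Hsp70 proteins, 1 of 14 probesets passed in HIP and 4 of 14 in P/FC, all higher in FSL. The probeset called in both regions was that of Hspa4l, an Hsp110-type exchange factor. In P/FC its intensity was 290, 362 and 451 (lowest, median, highest) in FRL and 384, 425 and 460 in FSL. All 17 FSL arrays were above the FRL median, and 18 of 22 FRL arrays were below every FSL array, although the groups overlapped through the highest FRL arrays. The change was 0.24 ± 0.04 in P/FC, with an adjusted p of 0.000109 in limma's test, and 0.12 ± 0.03 in HIP, with 0.00366.

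The mitochondrial Hsp70, Hspa9, rose by 0.37 ± 0.09 on one probeset in P/FC (limma, adjusted p of 0.00473) and by 0.11 ± 0.04 on its brighter probeset (0.0304), while another, dim probeset gave 0.09 ± 0.12 (0.664). The first of these differed by cohort in its level: in cohort 1 FRL arrays had 181, 249 and 311 and FSL arrays 272, 306 and 339, and in cohort 2 they had 67.0, 132 and 206 against 137, 164 and 205. In both cohorts the lines overlapped, with every FSL array above the FRL median of its cohort. With the Gapdh ratio as a covariate the change of this probeset was 0.11, with an adjusted p of 0.503, and that of the brighter one was 0.03, with 0.766. The brighter one kept its call in 5 of 10 alternatives. Hspa13, an Hsp70-like protein of microsomes, rose by 0.10 ± 0.03 in P/FC (adjusted p of 0.0398 by limma).

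The stress-inducible Hsp70 gene Hspa1a and the pair Hspa1a/Hspa1b did not pass in either region. The Hspa1a/Hspa1b probeset had 42.5, 75.5 and 212 in FRL and 36.5, 72.3 and 86.7 in FSL in P/FC, a change of -0.34 ± 0.13 with an adjusted p of 0.0607 by limma. The FSL arrays lay inside or below the FRL range, and 8 of 22 FRL arrays were above every FSL array. The Hspa1a probeset gave -0.18 ± 0.08 in P/FC, with an adjusted p of 0.119. Hspa5, the Hsp70 of the endoplasmic reticulum also called BiP, gave 0.06 ± 0.03 in HIP and 0.03 ± 0.03 in P/FC, with adjusted p-values of 0.272 and 0.497. Hspa4, another exchange factor, gave 0.03 ± 0.07 and 0.10 ± 0.06, with 0.888 and 0.293.

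Hsph1, the main Hsp110 of the cytosol, was higher in FSL in both regions. Its brighter probeset had 977, 1203 and 1317 in FRL and 1248, 1292 and 1348 in FSL in HIP, and 951, 1083 and 1324 against 1189, 1287 and 1356 in P/FC. All 17 FSL arrays were above the FRL median in each region, and 17 of 22 FRL arrays in HIP and 19 of 22 in P/FC were below every FSL array. The change was 0.16 ± 0.04 in HIP and 0.24 ± 0.04 in P/FC, with adjusted p-values of 0.0024 and 2.6e-05 in limma's test. A second Hsph1 probeset rose in P/FC by 0.20 ± 0.06 (0.0117) but gave -0.0045 ± 0.04 in HIP (0.961). Its change in P/FC was 0.04 with the Gapdh ratio as a covariate, with an adjusted p of 0.716, where that of the brighter probeset was 0.28. The chaperonin Hspd1 and its co-chaperonin Hspe1, which form the folding chamber of mitochondria, passed in neither region, with changes of -0.00073 ± 0.02 and 0.0015 ± 0.03 in HIP and of 0.06 ± 0.03 and 0.04 ± 0.04 in P/FC. So among the 3 genes whose promoters held a run of 3 GAA units, Hsph1 passed and the other 2 did not.

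Of the small heat shock proteins, Hspb6 was lower in FSL in both regions and was the only one of 5 probesets in HIP and of 6 in P/FC to pass. Its intensities were 78.5, 117 and 181 (lowest, median, highest) in FRL and 72.1, 99.7 and 142 in FSL in HIP, and 103, 148 and 215 against 86.6, 113 and 150 in P/FC. The groups overlapped, with 14 of 17 FSL arrays below the FRL median in HIP and 16 of 17 in P/FC. Hspb6, also called Hsp20, is best known from muscle, where it helps vessels relax. The change was -0.29 ± 0.09 in HIP and -0.32 ± 0.08 in P/FC, with adjusted p-values of 0.0404 and 0.00524 by limma. With the Gapdh ratio as a covariate the changes were -0.26 and -0.29, with adjusted p-values of 0.108 and 0.0853. The astrocyte and the endothelial and mural markers given above were lower in FSL as well, and their part in the Hspb6 change was not tested. Hspb1, or Hsp25, which guards actin filaments, gave -0.22 ± 0.13 in HIP and -0.26 ± 0.12 in P/FC, with adjusted p-values of 0.358 and 0.13.

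The Dnaja family holds the closest relatives of bacterial DnaJ. All its 6 probesets had positive changes in both regions, and 2 passed in HIP and 3 in P/FC. Dnaja1, a farnesylated cytosolic Hsp40, had 1070, 1177 and 1281 in FRL and 1179, 1250 and 1333 in FSL in HIP on its brighter probeset. In P/FC this probeset had 939, 1194 and 1473 in FRL and 1229, 1354 and 1490 in FSL, and all 17 FSL arrays were above the FRL median in each region. The changes were 0.08 ± 0.02 in HIP and 0.16 ± 0.04 in P/FC, with adjusted p-values of 0.0308 and 0.00474 by limma, and a second probeset gave 0.09 ± 0.03 and 0.18 ± 0.04, with 0.0283 and 0.00112. With the Gapdh ratio as a covariate the brighter probeset changed by 0.06 and 0.12 and passed in neither region. Dnaja2, its cytosolic paralog, rose by 0.09 ± 0.03 in P/FC (0.0208).

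**Figure D2:**
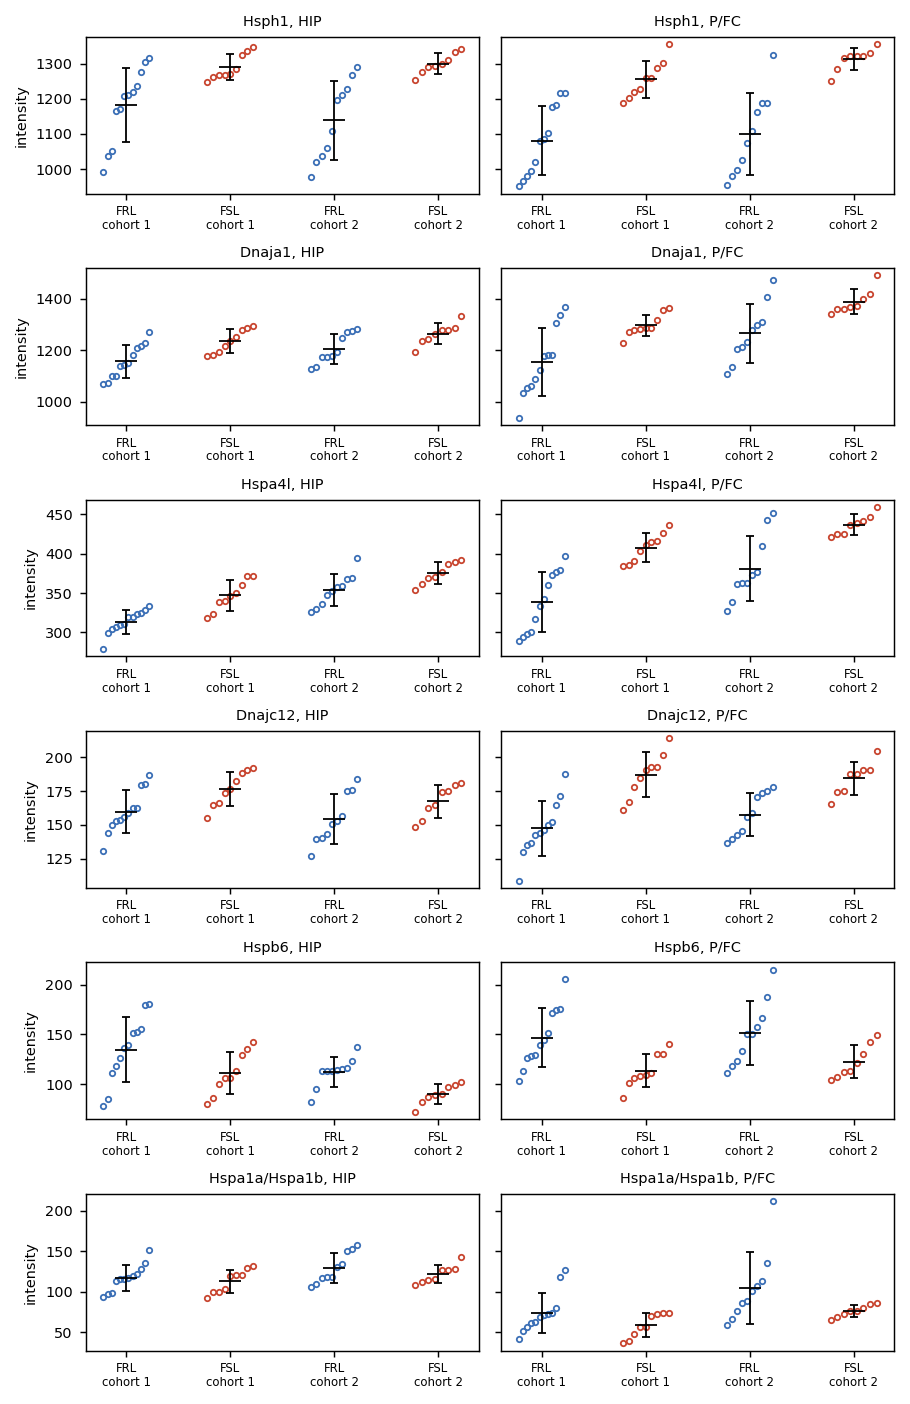
Intensity on a linear axis of 6 chaperone probesets in each array of HIP (left) and P/FC (right) by line and cohort, with the mean and SD of each group as a bar. Most FSL arrays of Hsph1, Dnaja1, Hspa4l and Dnajc12 lie above the FRL median of their cohort and region, and most of those of Hspb6 lie below it. The highest Hspa1a/Hspa1b value of 212 belongs to an FRL array of P/FC.

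In the Dnajc family, 1 of 29 probesets passed in HIP, higher in FSL, and 8 of 28 in P/FC, 7 higher and 1 lower. Dnajc12, a DnaJ protein that escorts the aromatic amino acid hydroxylases of monoamine synthesis, had 109, 148 and 188 in FRL and 161, 188 and 214 in FSL in P/FC. All 17 FSL arrays were above the FRL median and 9 were above every FRL array. The change was 0.29 ± 0.05 in P/FC, with an adjusted p of 0.000106 by limma, and 0.13 ± 0.05 in HIP, with 0.0604.

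Dnajc5 is the cysteine string protein, which guards presynaptic SNARE proteins with Hsc70. Its 3 probesets differed from each other. One rose by 0.11 ± 0.03 in HIP and by 0.17 ± 0.04 in P/FC (adjusted p of 0.0174 and 0.0057 by limma), with intensities of 623, 696 and 867 in FRL and of 695, 805 and 893 in FSL in P/FC. The brightest gave 0.01 ± 0.02 and 0.01 ± 0.03 (0.779 and 0.875), and the dimmest 0.16 ± 0.06 and 0.27 ± 0.11 (0.107 and 0.0715). With the Gapdh ratio as a covariate the first changed by 0.08 and 0.06 and passed in neither region. Dnajc6, or auxilin, which uncoats clathrin vesicles with Hsc70, rose by 0.17 ± 0.05 in P/FC on one probeset (0.0161) and gave 0.04 ± 0.04 on its brighter one (0.541). The first gave 0.11 (0.321) with the Gapdh ratio.

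Both probesets of Dnajc14, a membrane DnaJ protein of the endoplasmic reticulum, rose in P/FC, by 0.17 ± 0.05 and 0.13 ± 0.05 (adjusted p of 0.00586 and 0.0399 by limma). They gave 0.06 and 0.17 (0.474 and 0.0711) with the Gapdh ratio. Dnajc27, a small GTPase with a J domain, rose there by 0.15 ± 0.04 (0.00986), and Dnajc19, of the mitochondrial import motor, by 0.08 ± 0.03 (0.0432). The probeset that was lower in P/FC was that of Dnajc2, or zuotin, which works at the ribosome, with -0.20 ± 0.06 (0.00841). Dnajc10, an oxidoreductase of the endoplasmic reticulum, gave 0.09 ± 0.03 in HIP with an adjusted p of 0.0598.

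Apart from the Dnajb6 probesets, 1 Dnajb probeset passed. Dnajb2, a neuronal co-chaperone that sorts clients to the proteasome, was lower in P/FC by 0.09 on the log2 scale (-0.09 ± 0.03, adjusted p of 0.033 by limma), with 462, 520 and 581 in FRL and 444, 492 and 517 in FSL. All 17 FSL arrays were below the FRL median. In HIP this probeset gave -0.08 ± 0.03 (0.0606). Its P/FC call held in 6 of 10 alternatives, and with the Gapdh ratio as a covariate the change was -0.07, with an adjusted p of 0.314. A dim second Dnajb2 probeset passed in neither region. Its medians were 47.5 in FRL and 50.9 in FSL in HIP, and 51.2 and 47.6 in P/FC. Dnajb1, the classical heat-inducible Hsp40, gave -0.06 ± 0.04 in HIP and -0.12 ± 0.04 in P/FC on its brighter probeset (0.337 and 0.0511), and 0.05 ± 0.04 and 0.06 ± 0.06 on the other (0.544 and 0.536).

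Dnajb6 keeps aggregation-prone proteins such as polyglutamine stretches in solution and is made as a nuclear and a cytosolic isoform. It had 3 probesets, of which 1392598_at is annotated to Dnajb6 alone and 1382024_at and 1391422_at to Dnajb6/Dnajb6-ps10/Dnajb6-ps4, where the last 2 symbols are pseudogenes. Signal of the latter probesets cannot be assigned to the gene or to its pseudogenes. The array files hold no sequences of the probesets, and which part of the transcript each one reads was not analysed here.

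The Dnajb6 probeset 1392598_at had 352, 461 and 832 (lowest, median, highest) in FRL and 436, 960 and 1563 in FSL in HIP. In P/FC it had 408, 506 and 835 in FRL and 392, 1014 and 1660 in FSL. The means of the 22 FRL and 17 FSL arrays were 499 ± 147 and 957 ± 324 (SD) in HIP and 551 ± 131 and 1057 ± 357 in P/FC. Within each cohort, 8 of 9 FSL arrays of cohort 1 and 7 of 8 of cohort 2 were above every FRL array, and this held in both regions. The 1 remaining FSL array of each cohort and region lay within or below the FRL range. The change was 0.92 ± 0.11 in HIP and 0.89 ± 0.13 in P/FC on the log2 scale, a 1.90-fold and a 1.86-fold difference, with adjusted p-values of 2e-07 and 8.39e-06 by limma. It was 0.90 and 0.95 in the cohorts of HIP and 0.89 in each cohort of P/FC.

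The probeset 1382024_at moved the other way. In HIP its mean was 293 ± 44 (SD) over the 22 FRL arrays and 204 ± 82 over the 17 FSL arrays. In P/FC it was 314 ± 75 against 221 ± 86. Its lowest, median and highest values were 198, 301 and 364 in FRL and 66.4, 227 and 379 in FSL in HIP, and 187, 320 and 486 against 72.4, 233 and 384 in P/FC. The groups overlapped, with 15 of 17 FSL arrays below the FRL median in each region. The change was -0.64 ± 0.15 in HIP and -0.58 ± 0.15 in P/FC, with adjusted p-values of 0.00451 and 0.00472 by limma. The third probeset, 1391422_at, had 135, 141 and 163 in FRL and 138, 155 and 175 in FSL in HIP, a change of 0.11 ± 0.03 (0.0128). In P/FC it had 137, 160 and 180 in FRL and 136, 167 and 220 in FSL, a change of 0.06 ± 0.04 (0.29).

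**Figure D3:**
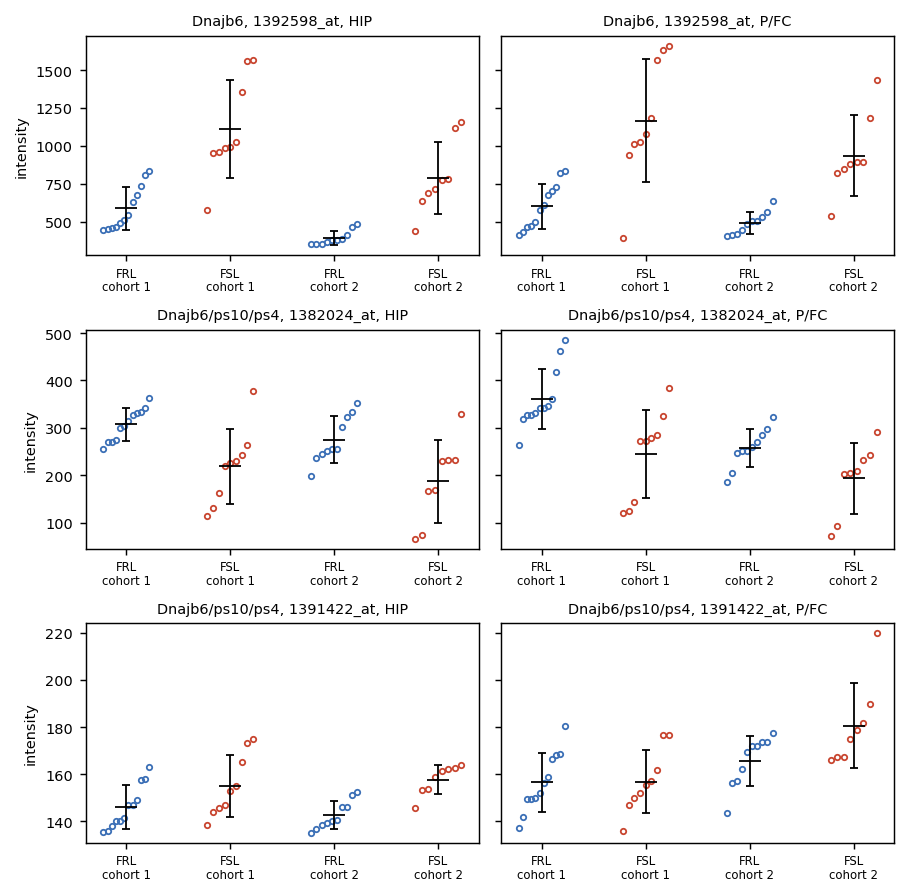
Intensity on a linear axis of the 3 probesets annotated to Dnajb6 in each array of HIP and P/FC by line and cohort, with the mean and SD of each group as a bar. The FSL points of 1392598_at span 436 to 1563 in HIP and 392 to 1660 in P/FC with gaps between them, those of 1382024_at lie mostly below FRL, and those of 1391422_at are close together.

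Among the FSL arrays the values of 1392598_at and 1382024_at fell at separate levels, highest in one where lowest in the other. In HIP cohort 1, 1 FSL array had 576 on 1392598_at with 379 on 1382024_at, 5 had 950 to 1026 with 220 to 263, and 3 had 1357 to 1563 with 115 to 163. In HIP cohort 2, 1 had 436 with 329, 5 had 636 to 782 with 168 to 232, and 2 had 1115 to 1154 with 66.4 to 74.6. The same numbers of arrays at each level were seen in P/FC.

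In P/FC cohort 1, 1 FSL array had 392 on 1392598_at with 384 on 1382024_at, 5 had 940 to 1180 with 272 to 325, and 3 had 1564 to 1660 with 121 to 145. In P/FC cohort 2, 1 had 535 with 291, 5 had 818 to 894 with 203 to 243, and 2 had 1181 to 1435 with 72.4 to 93.6. The sample numbers do not carry a level from one region to the other, and the levels were described from these values after they were seen, so no test was made of them. The third probeset showed no such levels. Separate values were not confined to FSL. In HIP cohort 1, FRL arrays had 444 to 541 on 1392598_at with 305 to 364 on 1382024_at, or 629 to 832 with 255 to 300. In P/FC cohort 1, FRL arrays ran from 411 to 835 on 1392598_at.

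**Figure D4:**
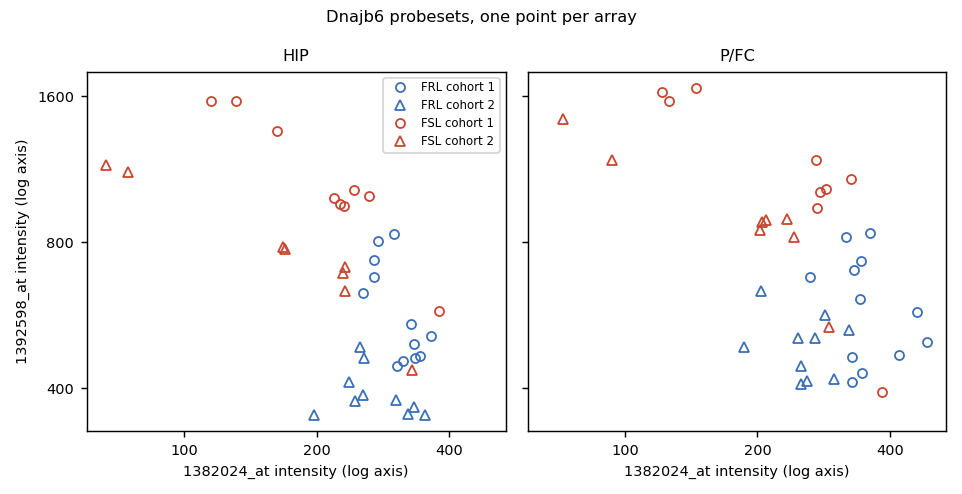
Intensity of the Dnajb6 probeset 1392598_at against that of the Dnajb6/Dnajb6-ps10/Dnajb6-ps4 probeset 1382024_at in each array of HIP and P/FC, both on log axes, by line and cohort. In each cohort and region 1 FSL array lies near the FRL arrays, 5 lie at a middle level and 3 (cohort 1) or 2 (cohort 2) lie at the top left.

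The spread within FSL of 1392598_at and 1382024_at was the widest among the members, although dim members came near it, such as Hspb8 with an SD of 0.48 on 1 probeset with a mean of 39.6. Pooled over cohorts and regions, that SD of log2 intensity within a group was 0.67 in FSL against 0.23 in FRL for 1382024_at, and 0.50 against 0.29 for 1392598_at. Over the 55 members with a mean above 100 the median SD was 0.13 in FRL and 0.10 in FSL, and the highest value in FSL outside Dnajb6 was 0.28 among these 55. For most other members the FRL arrays were thus the more variable ones.

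The cohorts were compared to ask whether the changes recurred. A p of at most 0.05 in both cohorts with the same sign was reached by 9 of 81 members in HIP and by 13 of 83 in P/FC, against 4.85% and 9.87% of all probesets tested. Common to both regions were 7 of these: Hsph1, Hspa4l, Hspb6, 1 probeset each of Dnaja1 and Dnajc5, the Dnajb6 probeset 1392598_at and 1382024_at. Changes had the same sign in both cohorts in 56 of 81 members in HIP, or 69.1%, where 64.7% of all probesets did, and in 69 of 83 in P/FC, or 83.1%, where 69.9% did. Within single cohorts, 2 members passed an adjusted p of 0.05 in cohort 1 and 2 in cohort 2 of HIP, where 2.36% and 2.33% of all probesets passed. In P/FC 10 passed in cohort 1 and 4 in cohort 2, where 7.8% and 3.78% passed.

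The difference between the cohorts in the line change passed for 0 members by limma, as for 0% of all probesets. At an unadjusted p of 0.05 there were 0 members in HIP, against 4.33% of all probesets, and 3 in P/FC, against 4.63%. The smallest p was that of Dnajc30, a mitochondrial DnaJ protein, which changed by -0.04 in cohort 1 and by 0.27 in cohort 2 of P/FC (p of 0.00245 by limma, adjusted 0.998). The other 2 were Dnajc21, of ribosome assembly, with -0.49 and 0.06, and Dnajc9, a histone chaperone, with 0.13 in cohort 1 and -0.0029 in cohort 2.

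**Figure D5:**
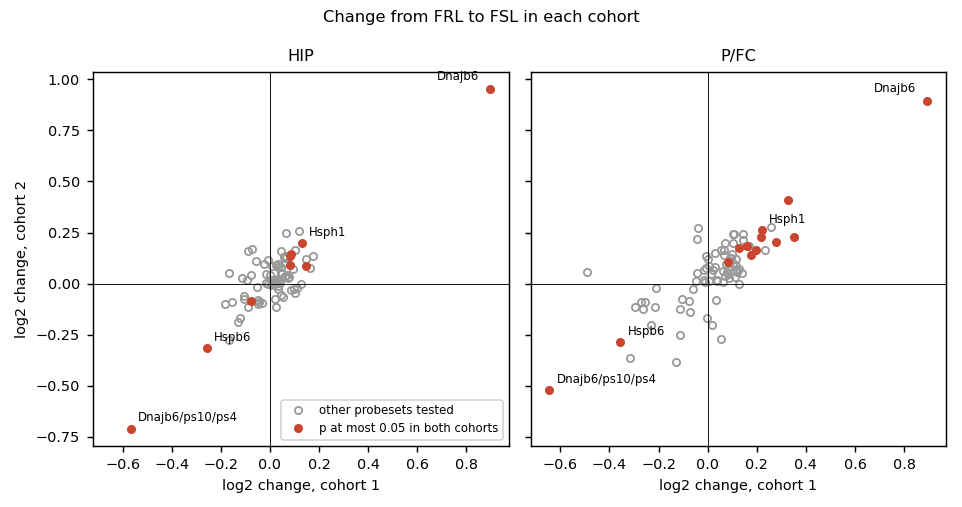
Log2 change from FRL to FSL in cohort 2 (vertical axis) against that in cohort 1 (horizontal axis) for each chaperone probeset tested in HIP and in P/FC, with filled points for p of at most 0.05 in both cohorts with the same sign. The filled points are 9 in HIP and 13 in P/FC, and Dnajb6 lies apart at the top right of both panels.

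The regions were compared in the same way. Of the 9 probesets called in HIP, 8 were called in P/FC as well and in the same direction, which is 88.9% of the HIP calls and 34.8% of the P/FC calls. Over all probesets these shares were 72.4% and 27.6%. The calls stood for 7 genes or groups of symbols in HIP and 19 in P/FC. The line change itself did not pass a test of difference between the regions for any of the 80 members kept in both, where 0.0668% of 20963 probesets passed. The smallest unadjusted p was that of the second Hsph1 probeset, whose line change was larger in P/FC by 0.20 ± 0.07 (p of 0.00315, adjusted p of 0.405 by limma). Hsp90ab1 followed with 0.09 ± 0.03 (adjusted p of 0.447), Hspa4l with 0.12 ± 0.05 (0.485) and Dnajc12 with 0.16 ± 0.07 (0.54). A call in P/FC alone is therefore not shown to differ from HIP.

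More members passed for a level difference between the 2 regions than for one between the lines. The region test used 78 arrays and each line test 39. Over both lines and cohorts, 49 of 80 members differed between P/FC and HIP, 30 higher in P/FC and 19 higher in HIP, where 69.6% of 20963 probesets did, 48.5% higher in P/FC and 21.1% higher in HIP. The median difference of the members was 0.04 on the log2 scale, against 0.08 over all probesets tested. Each region was processed as a separate run, so region and run cannot be told apart. After quantile normalization, which moved the median of all probesets to -0.0075, 50 of 81 members differed, 17 higher in P/FC and 33 higher in HIP, where 65.2% of all probesets differed. Of the 49 differences 44 kept their sign under it and 36 their call.

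A difference of more than 0.5 either way was found for 5 members, all of which kept their direction under quantile normalization. Dnajc21, which takes part in ribosome assembly, had a mean of 40.0 in HIP and 88.8 in P/FC, a difference of 1.15 ± 0.08. Dnajc2, which works at the ribosome, had 94.6 and 167, a difference of 0.84 ± 0.05, and Hspb9, a small heat shock protein of testis, had 32.4 and 48.0. Higher in HIP were Hspa1a/Hspa1b, with 121 in HIP and 79.0 in P/FC and a difference of -0.69 ± 0.07, and Dnajc13, an endosomal DnaJ protein, with 156 and 108 and a difference of -0.54 ± 0.04.

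The other genes of the chaperone pathways, none of them members, were taken from lists of HSF1 targets, co-chaperones, exchange factors, organelle chaperones and the cytosolic chaperonin. Of 59 genes tested in HIP 5 were higher and 2 lower in FSL, and of 60 in P/FC 17 were higher and 4 lower, with median changes of 0.01 and 0.08. Over all probesets tested, 3.2% were higher and 4.13% lower in HIP, and 9.76% and 8.86% in P/FC. Each gene was read on its brightest probeset, and its calls are given from the main fit only, without covariates. With the Gapdh ratio as a covariate, the share of all probesets that passed in P/FC went from 18.6% to 3.81%. Among all probesets kept by a filter at 100, 14.6% passed in HIP and 32% in P/FC. The cytosolic chaperonin TRiC and its partner prefoldin, which fold actin and tubulin, had 2 of 13 genes higher in HIP and 9 of 13 in P/FC, with no gene lower. Among these were the TRiC subunits Tcp1 with 0.17 ± 0.03 (adjusted p of 0.0008 by limma) and Cct7 with 0.13 ± 0.03 (0.0013) and the prefoldin subunit Pfdn4 with 0.17 ± 0.04 (0.00219), all in P/FC.

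Of 13 Hsp90 co-chaperones, 2 were higher in each region and 1 was lower in P/FC. The higher ones were the immunophilins Ppid, with 0.09 ± 0.02 in HIP and 0.11 ± 0.02 in P/FC, and Fkbp4, with 0.07 ± 0.02 and 0.12 ± 0.04. The lower one was the myosin chaperone Unc45a, with -0.11 ± 0.03. Of 7 HSF1 targets that are not members, Fkbp4 was the only one to pass in HIP. In P/FC Fkbp4 was higher and Hmox1 lower, with -0.26 ± 0.09 for Hmox1 (adjusted p of 0.0282 by limma). Hmox1 gave -0.22 ± 0.08 in HIP (0.0748). Among regulators of Hsp70 that are not members, the Bag proteins Bag4 and Bag5 rose in P/FC by 0.25 ± 0.06 and 0.13 ± 0.04, and 0 of 13 passed in HIP. The transcription factor Hsf1 gave -0.13 ± 0.04 in HIP (adjusted p of 0.0256 by limma) and -0.11 ± 0.04 in P/FC (0.0559), Hsf2 gave -0.11 ± 0.04 in P/FC (0.0369), and Hsbp1, which binds Hsf1, rose there by 0.11 ± 0.03 (0.00278).

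In the endoplasmic reticulum the disulfide isomerase Pdia4 was lower in FSL, with means of 133 in FRL and 84.9 in FSL in HIP and of 134 and 77.9 in P/FC, a change of -0.75 ± 0.09 and -0.79 ± 0.09 (adjusted p of 1.38e-07 and 2.48e-08 by limma). Of the other 12 non-member genes of this list 0 passed in HIP, and Pdia3 and Atf4 rose in P/FC, by 0.15 ± 0.04 and 0.08 ± 0.03. In mitochondria the protease subunit Clpp rose by 0.30 ± 0.05 and 0.41 ± 0.07 (0.00014 and 0.00011), and the other 4 non-member genes of that list did not pass. Of the synaptic co-chaperones that are not members, Gak and Sgta, neither passed in either region.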

How the data were processed

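The authors hybridised cRNA to Affymetrix Rat Genome 230 2.0 arrays and normalised signal across arrays with Rosetta Resolver; the deposited table holds linear intensity values per probeset. Intensities were floored at 1 and taken to log2. In each region a probeset was tested if 50% or more of the FRL and of the FSL arrays exceeded 30 (81 members in HIP, 83 in P/FC). With limma 3.58.1 (R 4.3.3), a mean was fitted per line and cohort, the line change was averaged over cohorts with equal weight, and p-values were adjusted by Benjamini-Hochberg over all probesets tested. Region and interaction tests used all 78 arrays as separate samples, since the labels do not pair arrays of an animal. The labelling batch of the authors' model is not in the labels and was not fitted. Replicates are separate arrays, and their number limits the precision. The fit was tested on simulated data. Symbols came from the platform annotation, and 20832 probesets have 1 symbol, 436 several and 9831 none. Values were chosen for naming by a rule: all Dnajb6 probesets, the 12 smallest adjusted p and the 3 largest changes each way per region, the smallest p for differences between regions (5) and cohorts (3), the brightest probeset of 17 well-known genes, other probesets of these genes that differed, and up to 3 further genes per pathway list. Members called in P/FC outside this rule, and those with region differences over 0.5, were named after their values were seen. The members and lists were chosen with earlier results of these data known. Alternatives were quantile normalization, 16 added before log2, no filter or a filter at 100, plain analysis of variance, covariates for 3′/5′ ratios and tissue markers, a replicate block, and cohorts fitted apart. Leaving out the P/FC array of FRL cohort 2 with the highest Actb ratio was chosen after seeing the data.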

Additional observations from a re-analysis of the deposited data

Results flagged for a closer look

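In 9 of 255 groups of chaperone probesets of 4 to 10 arrays (3.53%), 1 array stood apart from the rest by Dixon's criterion, which compares the gap to the nearest array with the whole range of the group and by chance marks about 1 group in 20. In P/FC cohort 2, the lowest FSL array of Dnaja1 (1398819_at) had 1064 and the next 1129 (gap over range 0.561), and the highest FSL array of Dnajb6/Dnajb6-ps10/Dnajb6-ps4 (1391422_at) had 220 and the next 190 (0.555). In P/FC cohort 1, the lowest FSL array of Dnajc10 had 265 and the next 307 (0.656). For Dnajc6 (1377125_at) the lowest FRL array of HIP cohort 2 had 1010 (0.522) and the lowest FSL array of P/FC cohort 1 had 1141 (0.502). The lowest FRL array of Dnajc9 in P/FC cohort 2 had 246 (0.602), and that of Hsp90ab1 (1375335_at) in HIP cohort 2 had 1737 (0.546). The highest FRL arrays of P/FC cohort 2 had 145 for Hspa1a (0.577), with 102 next, and 212 for Hspa1a/Hspa1b (0.502), with 136 next.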

How the results depend on the processing

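Every called line change of a named probeset kept its direction under the alternatives run, while of the 49 level differences between regions 44 kept their sign under quantile normalization, and none passed in the opposite direction. With the Gapdh 3′/5′ ratio as a covariate, the 9 calls of HIP over both cohorts became 5 and the 23 of P/FC became 5, while the share called of all probesets went from 7.33% to 5.22% and from 18.6% to 3.81%, and the 9 and 13 met in each cohort became 5 and 6. With the Actb ratio they went to 1 in HIP and 15 in P/FC over both cohorts, where 2.04% and 13.2% of all probesets passed, and to 2 in each cohort of HIP. A filter at 100 gave 15 in HIP over both cohorts, among 55 members tested, where 14.6% of all probesets passed, and fitting the cohorts apart gave 4 in each cohort of HIP. The cause of these shifts was not tested. The other totals stayed within 1.5 times the values given, but quantile normalization turned the region split from 30 higher in P/FC and 19 higher in HIP to 17 and 33. Counts of cohort difference and of region difference in the line change were 0 throughout. The Dnajb6 probeset 1392598_at passed in all 9 alternatives in HIP and all 10 in P/FC, and Hsph1 (1388898_at), Hspa4l and Dnajc12 passed in all 10 in P/FC. Over all named probesets, 735 of the single values stayed on their side of the threshold, 36 lost their call and 19 gained one. Without the FRL array of P/FC cohort 2 with number 7, chosen after seeing the data, 21 members passed in P/FC, 13 in each cohort, 49 differed in level and 0 in line change by region. Hspa9 (1388851_at) then had an adjusted p of 0.0515 by limma.

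Arrays carry numbers in the labels. Deviations of FSL and FRL arrays of a number correlated between -0.159 and 0.423 over 34 pairs, with a median of 0.12 and 18 above 0.1. Over 39 pairs of HIP and P/FC arrays the correlation lay between -0.28 and 0.365, with a median of 0.0251 and 10 above 0.1. Pairs of unlike numbers were not compared, so whether arrays of a number share a run was not tested. The numbers were not used as a pairing in the main fit. With a replicate block for these numbers, 10 members passed in HIP and 21 in P/FC, 18 of them among the 23, while 49 differed in level between regions and 0 in line change. Both regions came from the same animals but the labels do not show the pairs, which limits the region tests. Probesets near an intensity of 30 give imprecise changes.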

Other observations

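The probeset annotated to Haus8l2/Hspa8 was left out because its first symbol is no chaperone. Hspa8 is the constitutive Hsc70 that uncoats clathrin. In HIP the probeset had 5325 ± 183 (SD) over the 22 FRL arrays and 5388 ± 251 over the 17 FSL arrays, and it had 5607 ± 271 against 5621 ± 210 in P/FC. The lines overlapped in both regions.

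Among genes with a promoter in the table, the GAANNTTC or TTCNNGAA motif was present in 4 of 6 called and 9 of 42 not called in HIP, and in 6 of 14 called and 7 of 34 not called in P/FC. The called genes are counted whatever their direction. Those with a motif include Hspb6, which was lower in FSL in both regions. The counts are a description of the letters in 250 bases and were not tested.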
